A study of Saccharomyces cerevisiae with 12 samples.

Results

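The response of budding yeast (Saccharomyces cerevisiae) to estradiol (E2) was compared between a strain whose label carries an S10D form of histone H3 and a reference strain. The quantity reported is the difference of responses: the log2 fold change of E2 over ethanol (EtOH) in the S10D-labelled strain minus the same fold change in the reference strain. A negative difference therefore means that E2 raised a gene less, or lowered it more, in the S10D-labelled strain. All 12 of the 12 libraries of the RNA experiment entered the comparison, with 3 libraries in each of 4 groups, and all genes with enough reads were tested: 5990 of 7127 annotated features. Estradiol and ethanol were each given for 3 hours before poly(A) RNA was sequenced.

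The 4 groups were S10D-labelled cells with E2, S10D-labelled cells with EtOH, reference cells with E2 and reference cells with EtOH. Both strains are MATa and carry the centromere of chromosome IV between lox sites with a KanMX marker (lox-CEN4-lox), together with a GDP-promoter fusion of Cre recombinase to an estradiol-binding domain (creEBD78 in the reference label, creEDB78 in the S10D label) marked by LEU2. The S10D-labelled strain has HHT2 and HHF2, a histone H3 and H4 gene pair, replaced by the construct hht2-hhf2::[HHT-S10D-HHFS]-URA3. Its label further lists the deletion bar1-delta and the alleles leu2-x and Ade1, the operator arrays lys4::LacO:hphNT1 and trp1::TetO:TRP1, and the fluorescent repressors TetR-mRFP and his3::LacR-GFP:HIS3. The reference strain carries the auxotrophic alleles ura3-delta-0, met15-delta-0, his3-delta-1 and leu2-delta-0. The strains therefore differ in the histone construct, in nutritional markers and in reporters at once, and these cannot be told apart here. No library comes from a strain without lox sites, so effects of E2 itself and of losing the centromere cannot be told apart either.

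Serine 10 of histone H3 is phosphorylated in mitosis by Aurora B, a kinase called Ipl1 in yeast, and aspartate at that position is a common stand-in for the phosphorylated residue. Cre fused to an estradiol-binding domain recombines lox sites when estradiol is present, so that a centromere between them is excised and its chromosome can no longer attach to the spindle in the usual way. Slowed or stressed yeast cells are known for a broad shift in mRNA: the transcription factors Msn2 and Msn4 raise stress defence genes through stress response elements (STREs), and ribosomal protein genes fall. Sulfur genes follow another factor, Met4, which acts with Cbf1 at CACGTG sites.

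The reference sequence around codon 11 of both H3 genes is shown because it holds the residue that the S10D label names, counted as residue 10 after the initiator methionine. The capitals mark that serine codon in the R64 genome (RefSeq). It is the unaltered sequence, from the start codon on, and not one read from these libraries.
HHT2, chrXIV:576006-576050, minus strand: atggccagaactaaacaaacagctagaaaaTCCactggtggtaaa
HHT1, chrII:256331-256375, plus strand: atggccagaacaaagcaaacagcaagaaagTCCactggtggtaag
Both genes use the codon TCC there. The label names only HHT2 as altered, and HHT1 stayed at 1122 ± 44.6 CPM in S10D-labelled E2 and 1131 ± 15 CPM in S10D-labelled EtOH (SD, n = 3). CPM are library-scaled counts relative to the library total, as defined by edgeR. The 2 genes are near-identical, so the split of reads between them is uncertain.

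Promoters of 3 genes are shown because they carry the elements known for the stress and sulfur genes described below: the catalase gene CTT1, the small heat shock protein gene HSP26 and the sulfate permease gene SUL2. Each is the 300 bases that begin 400 bases before the start codon, in the R64 genome (RefSeq). The genes were picked for display after their values were seen. Capitals mark STREs, searched as AGGGG or its reverse complement CCCCT, in CTT1 and HSP26, and CACGTG, which reads alike on both strands, in SUL2.
CTT1, chrVII:654234-654533, plus strand: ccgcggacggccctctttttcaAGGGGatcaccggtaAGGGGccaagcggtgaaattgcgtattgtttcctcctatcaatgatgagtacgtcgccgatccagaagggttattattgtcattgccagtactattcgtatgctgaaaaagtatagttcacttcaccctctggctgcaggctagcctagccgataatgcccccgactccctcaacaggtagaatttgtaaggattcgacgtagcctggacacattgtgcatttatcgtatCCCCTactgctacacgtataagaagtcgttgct
HSP26, chrII:381630-381929, plus strand: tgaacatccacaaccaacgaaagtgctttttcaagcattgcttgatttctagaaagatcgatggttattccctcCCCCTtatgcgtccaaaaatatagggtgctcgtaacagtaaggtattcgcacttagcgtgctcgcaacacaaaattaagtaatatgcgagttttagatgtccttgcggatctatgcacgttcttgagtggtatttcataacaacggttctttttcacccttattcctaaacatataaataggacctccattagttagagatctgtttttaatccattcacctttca
SUL2, chrXII:323144-323443, plus strand: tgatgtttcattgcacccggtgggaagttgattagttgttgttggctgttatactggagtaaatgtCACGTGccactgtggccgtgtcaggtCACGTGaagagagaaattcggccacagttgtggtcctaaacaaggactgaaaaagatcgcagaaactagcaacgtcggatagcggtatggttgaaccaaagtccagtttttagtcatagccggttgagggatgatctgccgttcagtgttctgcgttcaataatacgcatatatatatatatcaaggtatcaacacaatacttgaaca
The CTT1 window holds 3 STREs, the HSP26 window 1 STRE and the SUL2 window 2 CACGTG sites.

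Libraries held 9362173 to 11806239 counts. The third reference EtOH library (replicate 3) was unlike its group: a chi-square of its counts against replicates 1 and 2 came to 31.5 and 32.5 per degree of freedom, while all remaining within-group pairs gave 1.4 to 5. Counts of list members above or below 0 are of called differences (adjusted p under 0.05), and are given with and without it. Over all genes tested, 9.82% were called above 0 and 10.6% below, or 16.5% and 16.7% without it. Markers were checked against the labelled MATa cell type. The 7 a-cell markers summed to 2136 to 2178 CPM in S10D-labelled E2, 2289 to 2341 CPM in S10D-labelled EtOH, 3326 to 3468 CPM in reference E2 and 3744 to 4582 CPM in reference EtOH. The 4 alpha-cell markers summed to 49 to 53.2 CPM in S10D-labelled E2, 49.1 to 51.6 CPM in S10D-labelled EtOH, 66 to 71.5 CPM in reference E2 and 57 to 63.5 CPM in reference EtOH. Most of that was SAG1, the alpha-agglutinin gene, at 41.7 to 61.1 CPM over the 12 libraries, while STE3, the receptor for a-factor, lay between 4.08 and 9.72 CPM. The alpha-factor genes MF(ALPHA)1 and MF(ALPHA)2 stayed at or below 2.56 and 0.598 CPM in every library. HHF2 averaged 23.6 ± 2.46 CPM in S10D-labelled E2, 26.1 ± 2.44 CPM in S10D-labelled EtOH, 379 ± 6.62 CPM in reference E2 and 576 ± 74 CPM in reference EtOH (SD, n = 3 each), low in the S10D-labelled strain where the label has it replaced. URA3 and MET17 (met15) were near 0 in the reference strain, at 0.125 and 1.78 CPM in EtOH. BAR1 went against its label: it averaged 362 ± 1.98 CPM in the S10D-labelled EtOH libraries, whose genotype lists it as deleted, and 842 ± 83.5 CPM in reference EtOH, so the strain is called S10D-labelled throughout. The labels do not tie replicates to separate cultures, and p-values therefore measure the spread between these libraries, which may be technical.

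The difference of responses was called, at an adjusted p under 0.05, for 1224 of 5990 genes, or 20.4% (edgeR quasi-likelihood test, Benjamini-Hochberg adjustment over all genes tested). It was above 0 for 588 genes (9.82%) and below 0 for 636 genes (10.6%). At an absolute log2 difference of at least 1 there were 79 called genes, of which 8 lay above 0 and 71 below. Without reference EtOH replicate 3 there were 105, of which 21 lay above 0 and 84 below. Each strain gives 9 pairwise differences between its 3 E2 and 3 EtOH libraries, and those 9 did not overlap between the strains for 1513 genes (25.3%), including 1170 of the 1224 called (95.6%). Without reference EtOH replicate 3 the count was 1994 of 6018 genes (33.1%), with 992 above 0 (16.5%) and 1002 below (16.7%). Of the 1224 genes, 1213 were called in both, all in the same direction.

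Within the S10D-labelled strain the response to E2 was called for 273 genes (4.56%), of which 145 rose (2.42%) and 128 fell (2.14%). In the reference strain it was called for 2671 genes (44.6%), of which 1342 rose (22.4%) and 1329 fell (22.2%). These counts moved with the libraries that set the spread. In fits of each strain's own 6 libraries they were 1370 in the S10D-labelled and 1843 in the reference strain. The S10D-labelled count was 991 without reference EtOH replicate 3, and between 102 and 138 when any 1 S10D-labelled library was left out. Over all genes tested, the SD of the log2 response was 0.20 in the S10D-labelled strain and 0.37 in the reference strain. Across genes, which are not independent replicates, Pearson's r between the responses was 0.26 and Spearman's rho 0.36; the responses share no library but come from 1 fit.

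The direction of the reference response was mostly kept at a smaller size. Among the 1342 genes called higher with E2 in the reference strain, the median response was 0.08 in the S10D-labelled libraries and 0.36 in the reference libraries that chose them, and 1004 (74.8%) were above 0 in the S10D-labelled strain. Among the 1329 called lower in the reference strain, the medians were -0.05 in the S10D-labelled and -0.30 in the reference strain, with 982 (73.9%) below 0 in the S10D-labelled strain. The converse held for genes that rose in the S10D-labelled strain but not for those that fell. The 145 called higher there had medians of 0.29 in the S10D-labelled and 0.42 in the reference strain, with 135 (93.1%) on the same side. The 128 called lower there had medians of -0.27 in the S10D-labelled and 0.01 in the reference strain, with 64 (50%) on the same side. With reference EtOH replicate 3 left out, the last group was 484 genes, of which 315 (65.1%) lay on the same side.

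**Figure D1:**
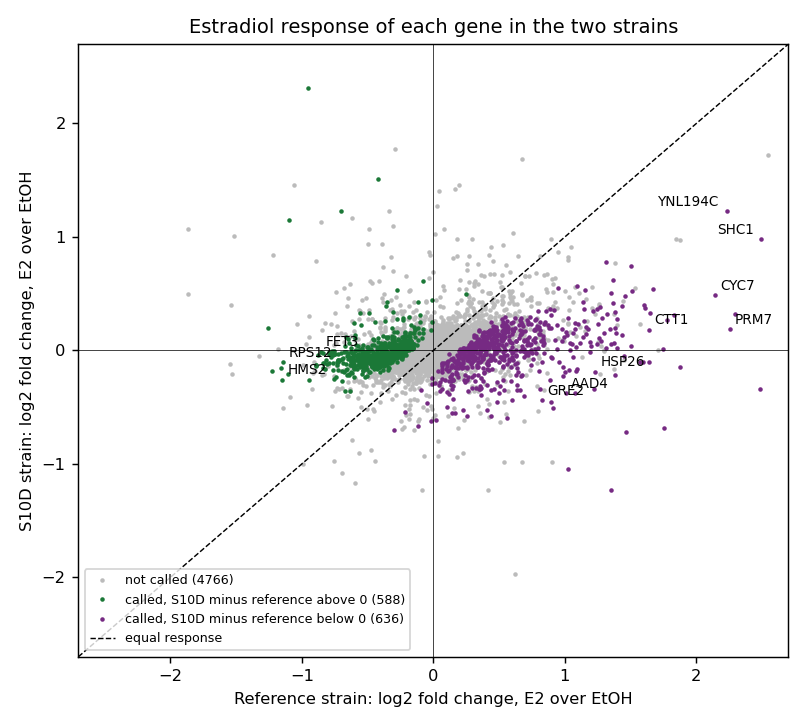
Each point is a gene tested, with its log2 response to E2 in the reference strain on the x axis and in the S10D-labelled strain on the y axis. Colours mark the 588 called differences above 0 (green) and 636 below 0 (purple), the dashed line marks equal responses, which the called genes leave by the way they were chosen, and 2 genes lie outside the axes.

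Starting levels in EtOH differed for 3481 genes (58.1%), of which 1602 were higher (26.7%) and 1879 lower (31.4%) in the S10D-labelled strain. These comparisons share libraries with the responses, so the values are given only side by side. Genes with a called difference above 0 had a median log2 level in the S10D-labelled strain over the reference strain of 0.10 in E2 and -0.30 in EtOH. For genes with a called difference below 0 the medians were -0.09 in E2 and 0.32 in EtOH. Single genes departed from these medians: CTT1 had a log2 level in the S10D-labelled strain over the reference strain of -2.14 in E2 and -0.68 in EtOH. In 93 of the 1224 called genes (7.6%) the S10D-labelled strain had the larger absolute response of the 2 strains.

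Stress defence genes, the targets of Msn2 and Msn4, mostly had differences below 0. Of 40 tested members of this list, 30 had a called difference below 0, 0 one above 0 and 10 were not called (34 below and 0 above without reference EtOH replicate 3). The called share was 75%, beside 20.4% of all genes, and 85% without that library, beside 33.1%. In the S10D-labelled strain 7 rose and 2 fell with E2, where 4.56% of all genes were called, and in the reference strain 33 rose and 3 fell, where 44.6% of all genes were called. With reference EtOH replicate 3 left out, 16 rose and 5 fell in the S10D-labelled strain, and 36 rose and 3 fell in the reference strain. The median difference was -0.74, beside 0.01 over all genes, and the median responses were 0.09 in the S10D-labelled strain and 0.75 in the reference strain. CTT1, which encodes the cytosolic catalase T that removes hydrogen peroxide, had 113, 115 and 120.4 CPM in S10D-labelled E2, 106, 95.2 and 105 CPM in S10D-labelled EtOH, 489.9, 525 and 513 CPM in reference E2 and 160.5, 171 and 159 CPM in reference EtOH. The reference E2 libraries stood far above the other 9, and the S10D-labelled E2 and EtOH ranges did not overlap but lay close together. The difference of responses was -1.46 ± 0.08 (SE, adjusted p = 4.9e-08), from log2 responses of 0.18 in the S10D-labelled strain and 1.64 in the reference strain. HSP26, a small heat shock protein that binds unfolded proteins, had 511, 492 and 505 CPM in S10D-labelled E2, 562, 557 and 600.1 CPM in S10D-labelled EtOH, 2894, 2957 and 2873 CPM in reference E2 and 1251, 1312 and 1162 CPM in reference EtOH. It rose with E2 in the reference strain and fell slightly in the S10D-labelled strain, with no overlap within either strain. Its difference was -1.42 ± 0.07 (SE, adjusted p = 2.94e-08).

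CYC7 and HXT5, both on the stress list, and GND2, which is not on it, shared the sign at other levels. CYC7, the isoform of cytochrome c that rises in stress and low oxygen, had 162, 159 and 155 CPM in S10D-labelled E2, 105, 117 and 118 CPM in S10D-labelled EtOH, 146, 139 and 154 CPM in reference E2 and 30.2, 27.6 and 41.4 CPM in reference EtOH. Both strains reached a like level in E2, and the low libraries were those of reference EtOH. The difference was -1.65 ± 0.15 (SE, adjusted p = 9e-06), and CYC7 rose with E2 in both strains, with log2 responses of 0.49 in the S10D-labelled strain and 2.14 in the reference strain. HXT5, a hexose transporter of slow-growing cells, averaged 18.2 ± 1.56 CPM in S10D-labelled E2, 14.6 ± 1.9 CPM in S10D-labelled EtOH, 216 ± 1.48 CPM in reference E2 and 61 ± 8.07 CPM in reference EtOH (SD, n = 3 each), with a difference of -1.52 ± 0.15 (SE, adjusted p = 1.23e-05). GND2, a minor isoform of 6-phosphogluconate dehydrogenase, was among the 10 most negative candidates as well, at 31.6 ± 1.11 CPM in S10D-labelled E2, 30.7 ± 1.13 CPM in S10D-labelled EtOH, 218 ± 3.44 CPM in reference E2 and 76.9 ± 1.87 CPM in reference EtOH (SD, n = 3 each) and a difference of -1.46 ± 0.07 (SE, adjusted p = 2.94e-08).

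An STRE was present in 35 of 40 windows of the stress list (87.5%), in the window shown above for CTT1 and HSP26, against 1341 of 5647 windows of all genes tested (23.7%). The list was put together from known Msn2 and Msn4 targets, so that share describes the list. The share was 11 of 27 (40.7%) for heat shock chaperones, 12 of 34 (35.3%) for redox genes, 16 of 82 (19.5%) for large and 10 of 56 (17.9%) for small ribosomal subunit genes.

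Heat shock chaperones, which refold damaged proteins under the factor Hsf1, showed the same direction at a smaller size. Of 27 tested, 15 had a called difference below 0 and 0 above, with a median of -0.33. Without reference EtOH replicate 3 the counts were 23 below and 1 above 0, with a median of -0.52. The called share was 55.6%, beside 20.4% of all genes, and 88.9% without that library, beside 33.1%. SSA4, an inducible Hsp70, averaged 243 ± 8.24 CPM in S10D-labelled E2, 246 ± 5.24 CPM in S10D-labelled EtOH, 832 ± 38.8 CPM in reference E2 and 365 ± 26.6 CPM in reference EtOH (SD, n = 3 each), with a difference of -1.21 ± 0.08 (SE, adjusted p = 3.3e-07). HSP82, an Hsp90, averaged 660.1 ± 14.6 CPM in S10D-labelled E2, 611 ± 7.62 CPM in S10D-labelled EtOH, 810.3 ± 20.5 CPM in reference E2 and 338 ± 26.7 CPM in reference EtOH, with a difference of -1.15 ± 0.07 (SE, adjusted p = 3.3e-07). The S10D-labelled EtOH level of HSP82 lay well above that of reference EtOH, and E2 moved it little in that strain. HSP104, a disaggregase, and SSA1, an Hsp70, had differences of -0.99 and -0.92.

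Trehalose and glycogen genes make and break the storage carbohydrates of slow-growing cells. Of 21, 12 had a called difference below 0 and 0 above (14 below and 0 above without reference EtOH replicate 3). The called share was 57.1%, beside 20.4% of all genes, and 66.7% without that library, beside 33.1%. The list median was -0.27, or -0.43 without reference EtOH replicate 3. Some of these genes rose with E2 in the S10D-labelled strain too. TSL1, a subunit of the trehalose synthase complex, averaged 617 ± 19.1 CPM in S10D-labelled E2, 401 ± 5.55 CPM in S10D-labelled EtOH, 1059 ± 100 CPM in reference E2 and 412 ± 43.2 CPM in reference EtOH (SD, n = 3 each), and its log2 responses were 0.62 in the S10D-labelled strain and 1.36 in the reference strain, both called. GDB1, the glycogen debranching enzyme, likewise rose in both strains, by log2 responses of 0.42 in the S10D-labelled strain and 1.36 in the reference strain. The differences of responses were -0.74 ± 0.11 (SE, adjusted p = 0.000232) for TSL1 and -0.94 for GDB1.

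**Figure D2:**
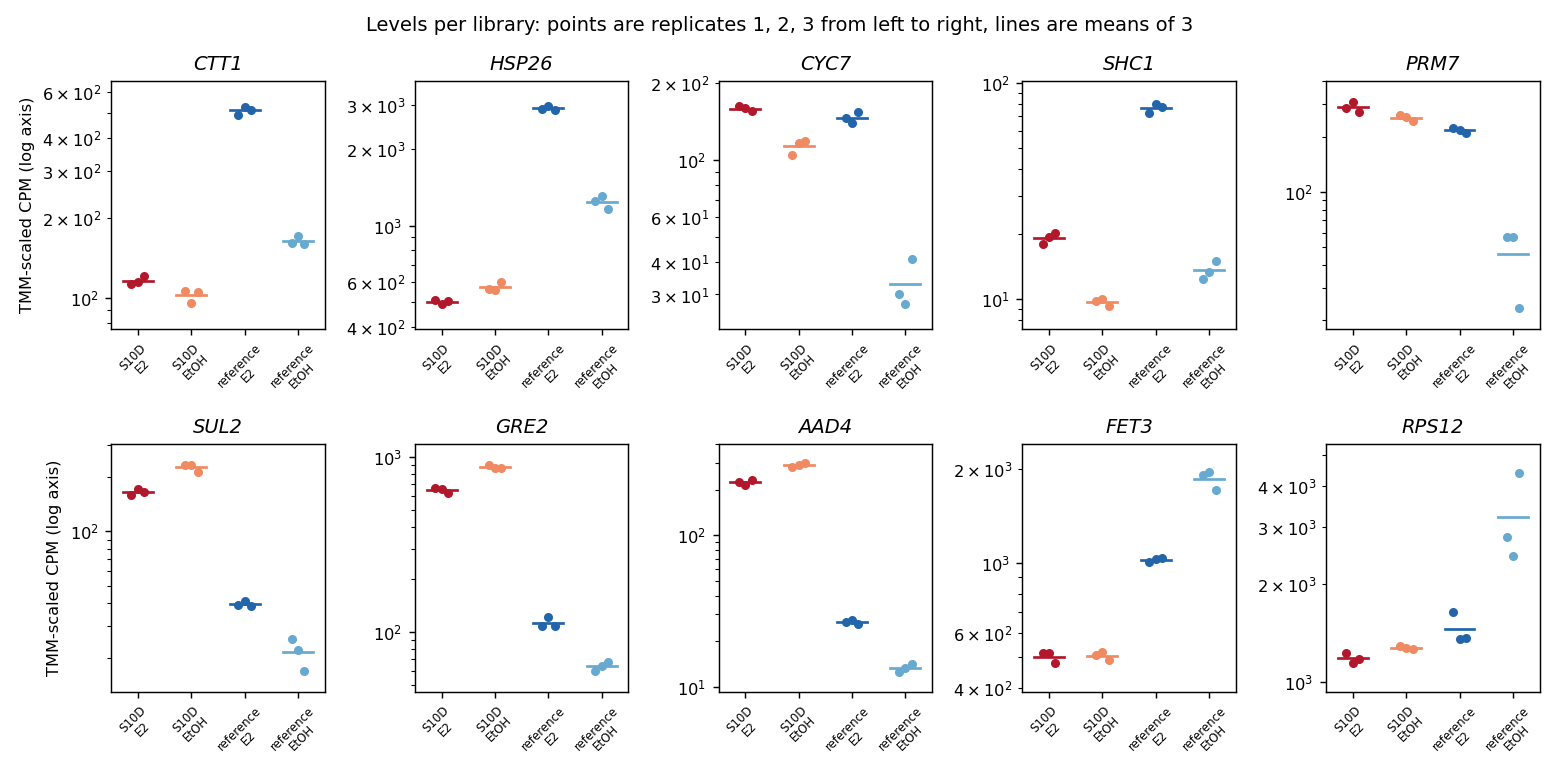
Levels in CPM on log axes for 10 genes, 1 point per library and a line at the mean of 3, with the S10D-labelled strain left of the reference strain and E2 left of EtOH in each. In CTT1 the reference E2 libraries stand alone, while in SUL2, GRE2 and AAD4 the S10D-labelled libraries lie far above the reference libraries and move the other way with E2; RPS12 and PRM7 show reference EtOH replicate 3 away from its group.

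Genes for redox defence, mostly targets of the oxidant-sensing factor Yap1, fell with E2 more often than they rose in the S10D-labelled strain, and rose more often than they fell in the reference strain. Of 35 tested, 0 rose and 14 fell with E2 in the S10D-labelled strain, where 2.14% of all genes fell, and 16 rose and 2 fell in the reference strain, where 22.4% of all genes rose. With reference EtOH replicate 3 left out, 1 rose and 22 fell in the S10D-labelled strain, and 21 rose and 2 fell in the reference strain. The difference was called below 0 for 22 and above for 1 (28 below and 1 above without reference EtOH replicate 3), with a list median of -0.44. The called share was 65.7%, beside 20.4% of all genes, and 82.9% without that library, beside 33.1%. The median responses were -0.23 in the S10D-labelled strain and 0.16 in the reference strain. GRE2, a reductase of methylglyoxal and other carbonyls, was not on this list but moved in the same directions. It had 667, 657 and 621 CPM in S10D-labelled E2, 907, 863 and 863 CPM in S10D-labelled EtOH, 108, 122 and 109 CPM in reference E2 and 59.8, 64 and 67.2 CPM in reference EtOH. All S10D-labelled libraries lay above all reference libraries, and within each strain E2 and EtOH did not overlap. Its difference was -1.26 ± 0.08 (SE, adjusted p = 3.3e-07), from called responses of -0.44 in the S10D-labelled strain and 0.82 in the reference strain. AAD4, an aryl-alcohol dehydrogenase of a subtelomeric family whose members share sequence, so that the split of reads among them is uncertain, had 226, 216 and 229.7 CPM in S10D-labelled E2, 284, 291 and 298 CPM in S10D-labelled EtOH, 26.7, 27.6 and 26 CPM in reference E2 and 12.5, 13.4 and 14.1 CPM in reference EtOH and a difference of -1.38 ± 0.08 (SE, adjusted p = 1.06e-07). The S10D-labelled EtOH libraries were the highest and the reference EtOH libraries the lowest.

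SRX1, the sulfiredoxin that repairs oxidized peroxiredoxins, averaged 17 ± 1.46 CPM in S10D-labelled E2, 22.1 ± 0.471 CPM in S10D-labelled EtOH, 20.3 ± 0.571 CPM in reference E2 and 9.61 ± 0.674 CPM in reference EtOH (SD, n = 3 each), with a difference of -1.46 ± 0.12 (SE, adjusted p = 3.07e-06). OYE3, an old yellow enzyme, had a large strain gap at 717 ± 2.52 CPM in S10D-labelled E2, 1070 ± 0.16 CPM in S10D-labelled EtOH, 8.76 ± 1.01 CPM in reference E2 and 6.45 ± 1.27 CPM in reference EtOH, with a difference of -1.01 ± 0.13 (SE, adjusted p = 0.000113). FRM2, a nitroreductase-like gene, had the most negative difference on the list, -2.18 ± 0.25 (SE, adjusted p = 3.69e-05), at only 3.26 ± 0.502 CPM in reference E2 and 1.17 ± 0.179 CPM in reference EtOH. Among 17 drug efflux genes, 6 were called below and 1 above 0 (8 below and 1 above without reference EtOH replicate 3). Their called share was 41.2%, beside 20.4% of all genes, and 52.9% without that library, beside 33.1%. The exporter ATR1, among those below 0, was called with E2 in the S10D-labelled strain and not in the reference strain: its responses were -0.62 in the S10D-labelled strain and 0.02 in the reference strain (adjusted p = 1.3e-05 and 0.86), and its difference was -0.63 ± 0.08 (SE, adjusted p = 9.22e-05).

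Sulfate assimilation and methionine genes, which turn sulfate into sulfide and then into cysteine and methionine, gave 20 of 30 called differences below 0 and 0 above (22 below and 0 above without reference EtOH replicate 3). Their median difference was -0.56, from median responses of -0.21 in the S10D-labelled strain and 0.37 in the reference strain. The called share was 66.7%, beside 20.4% of all genes, and 73.3% without that library, beside 33.1%. SUL2, a high-affinity sulfate permease, had 158, 172 and 166 CPM in S10D-labelled E2, 233, 232 and 213 CPM in S10D-labelled EtOH, 39.1, 41.4 and 38.7 CPM in reference E2 and 25.4, 22.1 and 16.9 CPM in reference EtOH. The groups did not overlap within either strain, and the directions were opposite. The difference was -1.35 ± 0.14 (SE, adjusted p = 1.42e-05), from called responses of -0.45 in the S10D-labelled strain and 0.89 in the reference strain. STR3, a cystathionine beta-lyase, averaged 50.6 ± 3.55 CPM in S10D-labelled E2, 64.2 ± 4.72 CPM in S10D-labelled EtOH, 20.1 ± 1.72 CPM in reference E2 and 8.62 ± 1.14 CPM in reference EtOH (SD, n = 3 each), with a difference of -1.56 ± 0.14 (SE, adjusted p = 4.78e-06). MET2, a homoserine acetyltransferase, and MET5, a subunit of sulfite reductase, had differences of -1.26 ± 0.09 (SE, adjusted p = 4.47e-07) and -1.21 ± 0.09 (SE, adjusted p = 1.35e-06). The reference strain lacks MET17, the enzyme that uses sulfide, and the S10D-labelled strain does not; the part of this marker in the difference was not tested. CACGTG was present in 18 of 30 windows of the list (60%), as in the SUL2 window shown above, against 260 of 5647 of all genes tested (4.6%), and this list too was assembled from known sulfur genes.

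Other amino acid pathways differed among themselves. Of 10 arginine synthesis genes 6 were called below 0 and 0 above (8 below and 0 above without reference EtOH replicate 3), with a median of -0.60. CPA1, a subunit of carbamoyl phosphate synthase, had a difference of -0.89 ± 0.07 (SE, adjusted p = 2.35e-06). It fell with E2 in the S10D-labelled strain and rose in the reference strain, with responses of -0.22 in the S10D-labelled strain and 0.67 in the reference strain. ARG1, argininosuccinate synthase, averaged 265 ± 5.96 CPM in S10D-labelled E2, 395 ± 4.82 CPM in S10D-labelled EtOH, 23.2 ± 1.37 CPM in reference E2 and 19.4 ± 1.6 CPM in reference EtOH (SD, n = 3 each), and its difference was -0.83 ± 0.08 (SE, adjusted p = 1.39e-05). Lysine synthesis had 4 of 11 below 0, aromatic synthesis 4 of 15 below and 1 above, branched-chain synthesis 1 of 13 below, and histidine synthesis 0 of 7. Leaving out reference EtOH replicate 3, lysine synthesis had 6 below and 0 above, aromatic synthesis 6 and 1, branched-chain synthesis 5 and 1, and histidine synthesis 0 and 1. Called shares were 60% for arginine, 36.4% for lysine, 33.3% for aromatic, 7.69% for branched-chain and 0% for histidine synthesis, beside 20.4% of all genes. Without that library they were 80%, 54.5%, 46.7%, 46.2% and 14.3% in the same order, beside 33.1% of all genes.

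Nitrogen uptake genes shared the negative direction. Of 21 amino acid permeases, 10 were called below 0 and 0 above (11 below and 1 above without reference EtOH replicate 3). Of 20 genes of proline, arginine, urea and GABA breakdown, 11 were called below 0 and 0 above (11 and 0 without that library). The called shares were 47.6% and 55%, beside 20.4% of all genes, and 57.1% and 55% without that library, beside 33.1%. PUT4, the proline permease, averaged 87.9 ± 5.87 CPM in S10D-labelled E2, 69.8 ± 2.74 CPM in S10D-labelled EtOH, 54.7 ± 3.65 CPM in reference E2 and 17.6 ± 3.92 CPM in reference EtOH (SD, n = 3 each), with a difference of -1.31 ± 0.16 (SE, adjusted p = 7.96e-05). AGP1, a broad amino acid permease, and GAP1, the general amino acid permease, had differences of -0.98 and -0.71, with responses for GAP1 of 0.12 in the S10D-labelled strain and 0.84 in the reference strain.

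Ribosomal protein genes moved the other way. Of 82 large subunit genes 66 had a called difference above 0 and 0 below, and of 56 small subunit genes 47 and 0. With reference EtOH replicate 3 left out, 75 large and 53 small subunit genes were above 0 and 0 and 0 below. The called shares were 80.5% and 83.9%, beside 20.4% of all genes, and 91.5% and 94.6% without that library, beside 33.1%. The median differences were 0.44 and 0.45. Their median responses were -0.07 in the S10D-labelled strain and -0.53 in the reference strain for the large subunit and -0.09 in the S10D-labelled strain and -0.54 in the reference strain for the small. RPS12, a small subunit protein, had 1232, 1146 and 1180 CPM in S10D-labelled E2, 1290, 1270 and 1264 CPM in S10D-labelled EtOH, 1642, 1356 and 1364 CPM in reference E2 and 2796, 2435 and 4389 CPM in reference EtOH. The 3 reference EtOH libraries lay above the other 9, and replicate 3 was the highest of them. The difference was 1.04 ± 0.25 (SE, adjusted p = 0.0132), or 0.74 without that library. RPL42B, a large subunit protein with a near-identical copy, averaged 463 ± 8.26 CPM in S10D-labelled E2, 524 ± 2.46 CPM in S10D-labelled EtOH, 677 ± 103 CPM in reference E2 and 1582 ± 453 CPM in reference EtOH (SD, n = 3 each), with a difference of 1.05 ± 0.24 (SE, adjusted p = 0.0111). RPL38 had the largest fitted value of the list, 1.28, and was not called (adjusted p = 0.133). Its reference EtOH libraries had 704, 651 and 2100 CPM, and without replicate 3 its difference was 0.51 (adjusted p = 9.24e-08). Many yeast ribosomal protein genes are near-identical pairs, and their split of reads is uncertain.

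Ribosome biogenesis genes, which process ribosomal RNA and usually move with the ribosomal proteins, did not share this pattern: 3 of 45 were called above and 5 below 0, with a median of -0.03. Without reference EtOH replicate 3 the counts were 9 above and 7 below. The called share was near that of all genes, at 17.8% beside 20.4%, and 35.6% beside 33.1% without that library. BRX1, a large subunit assembly factor, had 0.33 ± 0.07 (SE, adjusted p = 0.00397). RNA polymerase I and III subunits had 1 above and 1 below of 23 (8.7% called), or 5 and 2 (30.4%) without that library. Mitochondrial ribosomal proteins, which are nuclear-encoded, had 15 of 72 above and 0 below, or 21 and 1 without it, with a median of 0.19. Their called share, 20.8%, was near the 20.4% of all genes, and without that library it was 30.6% beside 33.1%. MRPL37 had a difference of 0.56 ± 0.10 (SE, adjusted p = 0.00182).

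**Figure D3:**
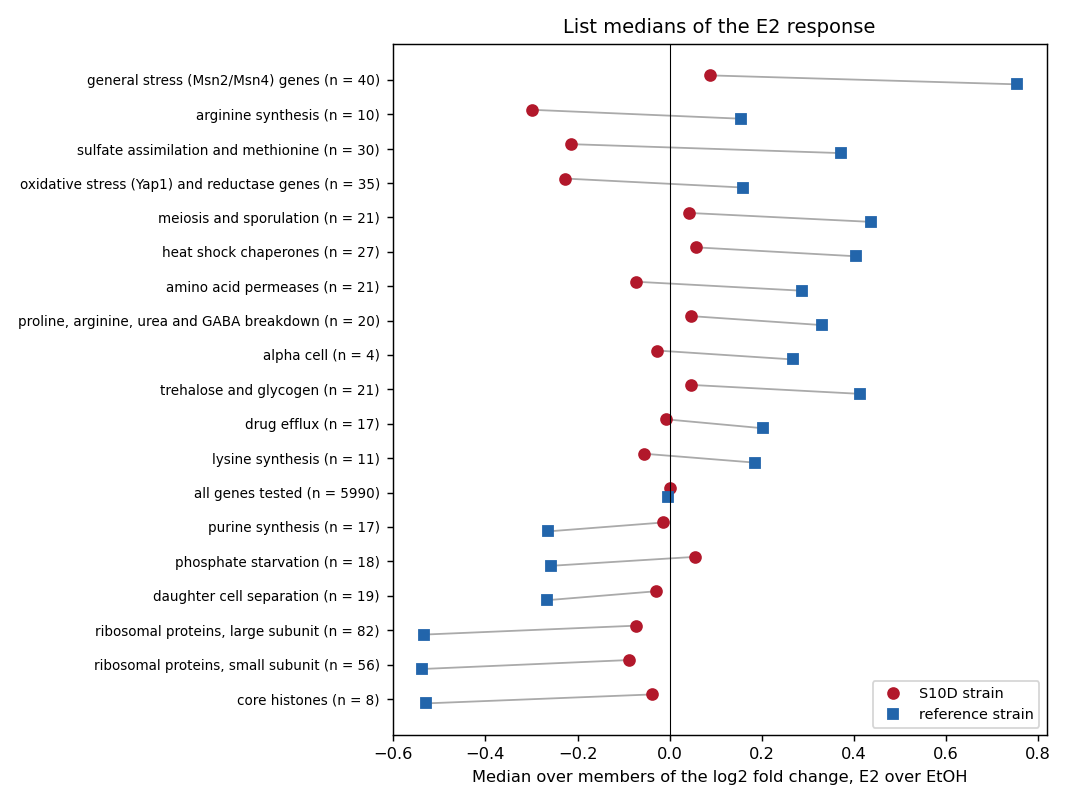
Median log2 response to E2 over the members of each list, with the S10D-labelled strain as red circles and the reference strain as blue squares, for all genes and for the 18 lists whose median difference of responses was at least 0.2 in size. The S10D-labelled medians lie nearer 0 than the reference medians in most lists; arginine synthesis and redox genes have the S10D-labelled median below 0 and farther from it.

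Core histone genes, which encode the proteins that package DNA, had 6 of 8 called differences above 0 and 0 below, with a median of 0.48 (0.39, with 6 above and 0 below, without reference EtOH replicate 3). The called share was 75% with and without that library, beside 20.4% and 33.1% of all genes. HTA2, an H2A gene, averaged 364 ± 12.4 CPM in S10D-labelled E2, 368 ± 4.73 CPM in S10D-labelled EtOH, 331 ± 13.7 CPM in reference E2 and 530.3 ± 72.8 CPM in reference EtOH (SD, n = 3 each), with a difference of 0.66 ± 0.11 (SE, adjusted p = 0.000573). HHT1, the H3 gene outside the construct, had a difference of 0.65 ± 0.11 (SE, adjusted p = 0.0013), from responses of -0.01 in the S10D-labelled strain and -0.66 in the reference strain. HHF2 and HHT2, both named in the construct, are among the 6 called genes, so the share above includes the altered locus. Their differences were 0.45 ± 0.14 (SE, adjusted p = 0.0404) and 0.26 ± 0.07 (SE, adjusted p = 0.024). Neither was called under every alternative setting tried: HHF2 was lost in 7 and HHT2 in 6. Histone mRNA is made mainly in S phase.

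Daughter cell separation genes, which act at the end of mitosis to part mother and daughter, had 8 of 19 above 0 and 1 below. Without reference EtOH replicate 3 the counts were 13 above and 2 below. The called shares with and without that library were 47.4% and 78.9%, beside 20.4% and 33.1% of all genes. CTS1, the chitinase that cleaves the septum, averaged 3202 ± 125 CPM in S10D-labelled E2, 3236 ± 66.5 CPM in S10D-labelled EtOH, 3000 ± 78.7 CPM in reference E2 and 4284 ± 197 CPM in reference EtOH (SD, n = 3 each), and its difference was 0.50 ± 0.06 (SE, adjusted p = 8.55e-05). DSE2 and PIR1, both cell wall proteins, had differences of 0.48 and 0.49. In bulk cultures, fewer cells of a state and less RNA per cell cannot be told apart.

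Genes of a-cell identity and the pheromone response had 8 of 27 above 0 and 1 below, or 16 and 2 without reference EtOH replicate 3. The called shares with and without that library were 33.3% and 66.7%, beside 20.4% and 33.1% of all genes. MFA1, an a-factor gene, averaged 79.5 ± 5.61 CPM in S10D-labelled E2, 80 ± 5.63 CPM in S10D-labelled EtOH, 178 ± 14.3 CPM in reference E2 and 309.6 ± 51.8 CPM in reference EtOH (SD, n = 3 each), and its difference was 0.78 ± 0.16 (SE, adjusted p = 0.00386). AGA1, an anchor of mating agglutinin, had a difference of 0.75 ± 0.14 (SE, adjusted p = 0.0021). PRM7, named for its regulation by pheromone, was not on this list. It went the opposite way, with the most negative difference of all candidates. PRM7 had 285, 307 and 274 CPM in S10D-labelled E2, 263, 255 and 243 CPM in S10D-labelled EtOH, 223, 216 and 211 CPM in reference E2 and 56.8, 57.1 and 23.4 CPM in reference EtOH. Reference EtOH stood alone at the low end, with replicate 3 the lowest, and the difference was -2.06 ± 0.31 (SE, adjusted p = 0.00101), or -1.74 without replicate 3. BSC1, its neighbour on chromosome IV, had 23, 23.1 and 8.9 CPM in reference EtOH and a difference of -1.97 ± 0.29 (SE, adjusted p = 0.000732).

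Nutrient uptake gave mixed directions. FET3, the ferroxidase of high-affinity iron uptake, had 515, 515 and 479 CPM in S10D-labelled E2, 509, 519.7 and 492 CPM in S10D-labelled EtOH, 1007, 1031 and 1041 CPM in reference E2 and 1911, 1950 and 1718 CPM in reference EtOH. It fell with E2 in the reference strain, and the S10D-labelled groups overlapped. Its difference was 0.85 ± 0.07 (SE, adjusted p = 3.07e-06), and FTR1, its partner permease, had 0.71 ± 0.10 (SE, adjusted p = 0.000149). The iron list as a whole had 8 above and 4 below 0 of 29, or 10 and 7 without reference EtOH replicate 3, among them the heme oxygenase HMX1 at -0.71. Phosphate starvation genes had 6 above and 2 below of 18, or 8 and 2 without that library. Called shares were 41.4% for iron and 44.4% for phosphate genes, beside 20.4% of all genes. Without that library they were 58.6% and 55.6%, beside 33.1%. SPL2, a regulator of phosphate uptake, averaged 3.12 ± 0.98 CPM in S10D-labelled E2, 2.76 ± 0.434 CPM in S10D-labelled EtOH, 16.6 ± 1.34 CPM in reference E2 and 39.7 ± 2.65 CPM in reference EtOH (SD, n = 3 each), with a difference of 1.45 ± 0.26 (SE, adjusted p = 0.00114). FET4, a low-affinity iron transporter on the zinc list, was called in the S10D-labelled strain and not in the reference strain, with responses of 0.45 in the S10D-labelled strain and -0.01 in the reference strain and a difference of 0.46 ± 0.09 (SE, adjusted p = 0.00344).

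Of nucleotide synthesis genes, 8 of 17 purine genes had a called difference above 0 and 0 below, and 3 of 14 pyrimidine genes above and 0 below. Called shares were 47.1% for purine and 21.4% for pyrimidine genes, the last near the 20.4% of all genes. Leaving out reference EtOH replicate 3, 9 purine genes were above and 1 below, and 6 pyrimidine genes above and 1 below. The shares without that library were 58.8% and 50%, beside 33.1% of all genes. ADE17, an enzyme of the last steps of purine synthesis, averaged 118 ± 1.99 CPM in S10D-labelled E2, 123 ± 2.3 CPM in S10D-labelled EtOH, 906 ± 30.7 CPM in reference E2 and 1307 ± 132 CPM in reference EtOH (SD, n = 3 each), with a difference of 0.47 ± 0.09 (SE, adjusted p = 0.00167). URA1, dihydroorotate dehydrogenase, had 0.75 ± 0.06 (SE, adjusted p = 1.81e-06). The S10D-labelled strain carries URA3, which the reference strain lacks, and its label lists Ade1. ADE1, itself on the purine list, averaged 137 ± 2 CPM in S10D-labelled E2 and 137 ± 4.41 CPM in S10D-labelled EtOH. It averaged 484 ± 15.6 CPM in reference E2 and 637 ± 59.7 CPM in reference EtOH (SD, n = 3 each). Its difference was 0.40 ± 0.08 (SE, adjusted p = 0.00415). The part of these markers was not tested.

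Cell wall and membrane genes split. The cell wall integrity list had 6 above and 8 below 0 of 24, or 8 and 10 without reference EtOH replicate 3. Its called share was 58.3%, beside 20.4% of all genes, and 75% without that library, beside 33.1%. SHC1, an activator of chitin synthase, had 17.9, 19.3 and 20.1 CPM in S10D-labelled E2, 9.81, 9.94 and 9.25 CPM in S10D-labelled EtOH, 72.4, 79.7 and 77.3 CPM in reference E2 and 12.4, 13.3 and 14.9 CPM in reference EtOH. It rose with E2 in both strains without overlap and reached the highest level in reference E2. The responses were 0.98 in the S10D-labelled strain and 2.49 in the reference strain, and the difference was -1.51 ± 0.12 (SE, adjusted p = 2.35e-06). YNL194C, a SUR7-family membrane protein, likewise rose in both, with responses of 1.23 in the S10D-labelled strain and 2.23 in the reference strain and a difference of -1.01 ± 0.13 (SE, adjusted p = 8.55e-05). PIR3 and YPS6 had differences of -0.89 and -1.02.

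**Figure D4:**
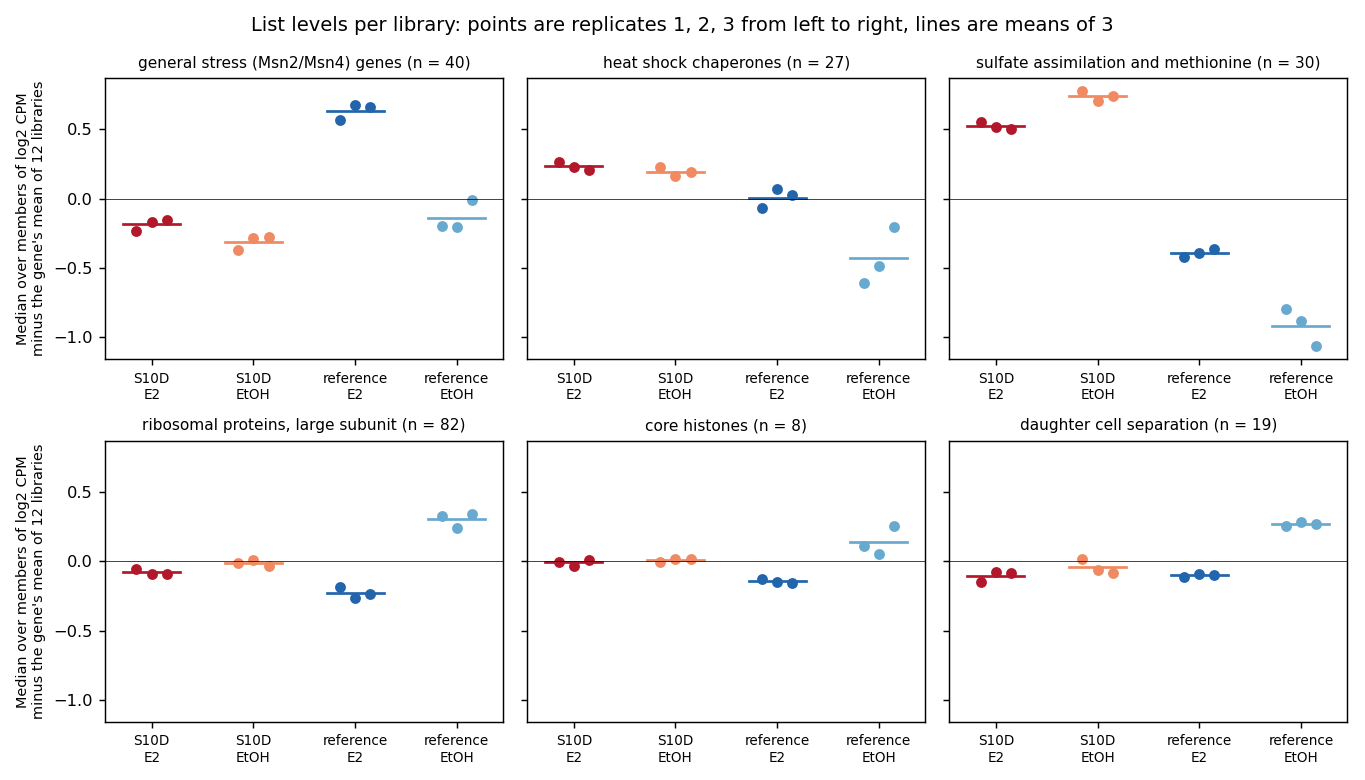
Median over list members of the log2 CPM relative to each gene's mean of 12 libraries, 1 point per library, for 6 lists. For stress genes reference E2 stands above the other groups; for large subunit ribosomal proteins and daughter genes reference EtOH stands above the rest; for sulfur genes the S10D-labelled libraries lie above the reference libraries, with E2 below EtOH in the S10D-labelled and above it in the reference strain.

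Genes called with E2 in both strains and in opposite directions were counted among 1113 candidates, that is, called genes averaging 10 CPM or more in each strain, with no overlap of the pairwise differences. There were 42, of which 40 fell in the S10D-labelled strain and rose in the reference strain, and 2 did the reverse. These counts come from the main fit only. They need a call in the S10D-labelled strain, and such calls numbered 273 there and 102 to 991 with single libraries left out. Of the 42, 8 were on the sulfur list, 5 on the redox list and 29 on neither. The sulfur list held 30 and the redox list 35 of the 5990 genes tested. CYB2, the mitochondrial lactate dehydrogenase cytochrome b2, was in the last group at 140 ± 6.39 CPM in S10D-labelled E2, 177 ± 10.7 CPM in S10D-labelled EtOH, 63.4 ± 1.82 CPM in reference E2 and 36 ± 2.62 CPM in reference EtOH (SD, n = 3 each), with responses of -0.34 in the S10D-labelled strain and 0.81 in the reference strain and a difference of -1.15 ± 0.09 (SE, adjusted p = 1.35e-06).

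Genes of chromosome segregation and of H3 serine 10 modification were called at shares below the 20.4% of all genes, or the 33.1% without reference EtOH replicate 3. Shares were 6.25% for the Aurora B list and 18.2% for cohesin and kinetochore genes, or 25% and 30.3% without that library. They were 5% for spindle checkpoint and APC genes and 3.85% for silencing and histone modifier genes, or 10% and 11.5% without it. The Aurora B, condensin and topoisomerase II list had 1 of 16 below 0 and 0 above, or 2 below and 2 above without reference EtOH replicate 3; the called gene was YCG1, a condensin subunit on chromosome IV, at -0.28 ± 0.09 (SE, adjusted p = 0.0329), a call lost in 6 of 22 alternative settings. Cohesin and kinetochore genes had 3 above and 3 below of 33, or 7 and 3 without that library. SCC2, the cohesin loader, averaged 92.5 ± 4.43 CPM in S10D-labelled E2, 80.9 ± 3.19 CPM in S10D-labelled EtOH, 144 ± 10.2 CPM in reference E2 and 83.2 ± 2.62 CPM in reference EtOH (SD, n = 3 each), with a difference of -0.60 ± 0.08 (SE, adjusted p = 0.000197), and MCD1, a cohesin subunit, had -0.55 ± 0.07 (SE, adjusted p = 0.000123). Both genes are on chromosome IV. Spindle checkpoint and APC genes had 1 of 20 below 0 and silencing and histone modifier genes 1 of 26, or 2 and 3 without it, with 0 above in either list with or without it. G1/S and replication genes had 4 above and 5 below of 35 (25.7% called), and CLB2-cluster genes 1 and 3 of 21 (19%). Without that library the counts were 9 above and 7 below (45.7%), and 4 and 4 (38.1%). DNA damage inducible genes had 7 of 20 below 0 and 0 above (35%), or 10 and 1 without it (55%). RNR3, a ribonucleotide reductase subunit and damage reporter, had -0.56 ± 0.14 (SE, adjusted p = 0.0136).

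Chromosome IV, whose centromere lies between the lox sites, differed in the response. Its 737 tested genes had a median difference of -0.06, or -0.07 relative to the other nuclear genes. Relative to the other nuclear genes, its median response to E2 was 0.08 higher in the S10D-labelled strain and 0.14 higher in the reference strain. Differences below 0 were called for 120 chromosome IV genes (16.3%) and above 0 for 34 (4.61%), against 512 (10.4%) and 541 (11%) on the other nuclear chromosomes. Chromosome I came closest, at -0.06, and the highest was chromosome II at 0.03. The value was alike on the arms, -0.07 over 225 genes of the left arm and -0.07 over 512 of the right, and was -0.07 for 51 genes within 50 kb of the centromere and -0.06 for 343 genes beyond 400 kb. These splits of the chromosome were chosen after the values were seen. With reference EtOH replicate 3 left out, the chromosome IV value was -0.07, with 64 genes above and 172 below 0. Among single genes, YAP6, a transcription factor on chromosome IV, had a difference of -0.84 ± 0.11 (SE, adjusted p = 9.12e-05).

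**Figure D5:**
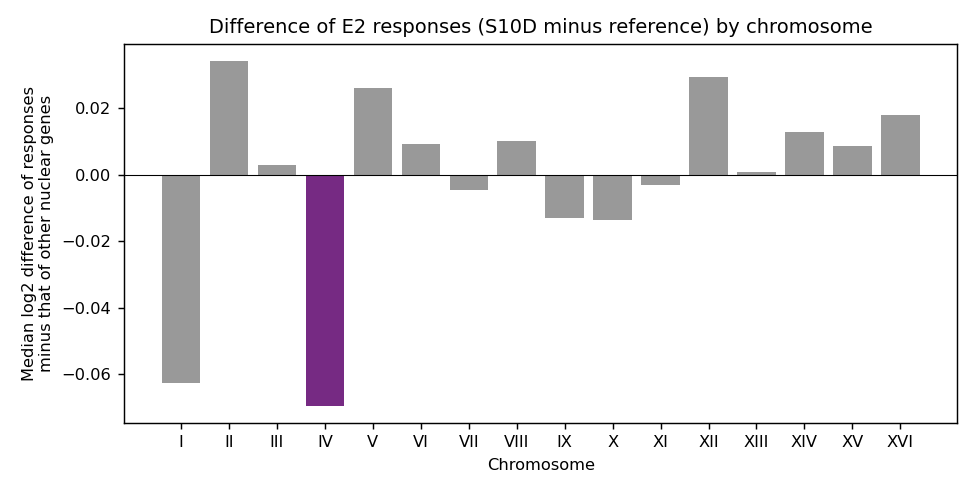
Median log2 difference of responses of each nuclear chromosome's genes, relative to the median of the remaining nuclear genes. Chromosome IV (purple) is lowest at -0.07, chromosome I follows at -0.06, and the others lie between -0.01 and 0.03; the values have no error bars because genes are not replicates.

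The 2 largest positive differences among the candidates were in RNAs without a regular poly(A) tail. SCR1, the RNA of the signal recognition particle, had 38.9, 19.7 and 14.9 CPM in S10D-labelled E2, 8.14, 12.2 and 12.7 CPM in S10D-labelled EtOH, 60.5, 48.9 and 61.3 CPM in reference E2 and 84.6, 75.2 and 204 CPM in reference EtOH, with a difference of 2.24 ± 0.70 (SE, adjusted p = 0.0497) that 12 of 22 alternative settings lost. Its highest values were reference EtOH replicate 3 and, within the S10D-labelled strain, E2 replicate 1, and without reference EtOH replicate 3 the difference was 1.63. The U3 small nucleolar RNA snR17a had 33.1, 16.6 and 13.2 CPM in S10D-labelled E2, 7.85, 9.27 and 9.56 CPM in S10D-labelled EtOH, 11.2, 13.2 and 11 CPM in reference E2 and 15.9, 17.4 and 23.9 CPM in reference EtOH and a difference of 1.93 ± 0.43 (SE, adjusted p = 0.00867). Its E2 libraries were the higher in the S10D-labelled strain and the lower in the reference strain. The libraries were made from poly(A) RNA, and 84 features of this kind summed to 871 to 985 CPM in S10D-labelled E2, 690.1 to 833 CPM in S10D-labelled EtOH, 1295 to 1624 CPM in reference E2 and 1644 to 1826 CPM in reference EtOH. The sum moved the same way as both genes, and its part in their differences was not tested.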

How the data were processed

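Counts of reads per annotated feature were deposited by the authors for 12 poly(A) RNA libraries, 3 per group, per the labels made from 400 ng of total RNA with a strand-specific kit. Builds R64 and sacCer3 and the tools HTSeq 0.6.1p1, STAR 2.5.3a, cutadapt 1.10 and bcl2fastq 2.20.0.422 are named, without roles, in the submitters' processing notes. The strand setting of the counting is not given in the sources used here, so reads of overlapping antisense genes may not be told apart. Features were placed on R64 by locus tag (6047) or symbol (41), and 1039 unmatched features, at most 0.481% of a library's counts, stayed in the tests without a position.

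Counts were scaled by TMM, filtered with filterByExpr (minimum count 10, minimum total 15) and tested in edgeR 4.0.16 (robust quasi-likelihood test, 2-sided, R 4.3.3, limma 3.58.1) with 4 group means and 8 residual degrees of freedom. The common biological coefficient of variation was 6.31%. P-values were Benjamini-Hochberg adjusted over all 5990 genes. Levels are TMM-scaled CPM, and pairwise differences add 0.5 to CPM before the log2. The ranges of a-cell and alpha-cell markers and the sums over 84 features are CPM without TMM scaling. An exact permutation test of 3 against 3 libraries cannot go below p = 0.1, so the fit across genes was used. The procedure was tested on simulated data.

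The comparison and the 46 gene lists were chosen with earlier results of these data known, and list counts and medians carry no test. Named genes were candidates (called, at least 10 CPM on average in each strain, no overlap of the 9 pairwise differences of each strain) with the 10 lowest and 10 highest differences, up to 8 with opposite calls and up to 5 on chromosome IV, and up to 4 members with the largest absolute difference per list described. Some genes so named are not described. Alternatives were DESeq2 1.42.0, other size factors, other filters, a non-robust fit, replicate blocks and leaving out each library. Promoter windows are 300 bases of the R64 RefSeq genome.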

Additional observations from a re-analysis of the deposited data

Results flagged for a closer look

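The difference of E2 responses between the strains, S10D-labelled minus reference, was itself tested and called for 1224 genes (edgeR quasi-likelihood test, Benjamini-Hochberg adjusted p under 0.05), and 28 of them were named among the leading genes. The values below are log2 differences.

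The 10 lowest candidates were PRM7 at -2.06, BSC1 at -1.97, YER053C-A at -1.67, CYC7 at -1.65, STR3 at -1.56, HXT5 at -1.52, YOR338W at -1.51, SHC1 at -1.51, GND2 at -1.46 and CTT1 at -1.46. In YER053C-A the reference level was low, with 20.9, 18.3 and 15.6 CPM in E2 and 4.44, 4.24 and 9.41 CPM in EtOH. YOR338W averaged 116 ± 4.8 CPM in S10D-labelled E2, 96.3 ± 4.01 CPM in S10D-labelled EtOH, 80.9 ± 1.44 CPM in reference E2 and 23.7 ± 5.23 CPM in reference EtOH (SD, n = 3 each).

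The 10 highest were SCR1 at 2.24, snR17a at 1.93, RPL42B at 1.05, RPS12 at 1.04, RPS28B at 1.01, HXT6 at 0.90, HMS2 at 0.89, FET3 at 0.85, RPL11A at 0.84 and MRK1 at 0.82. Reads of RPL42B, RPS28B, RPL11A and HXT6 may be split with near-identical copies. HMS2, a relative of heat shock factors, averaged 44.3 ± 1.49 CPM in S10D-labelled E2, 53 ± 2.49 CPM in S10D-labelled EtOH, 36.2 ± 0.589 CPM in reference E2 and 80.4 ± 3.48 CPM in reference EtOH (SD, n = 3 each), and MRK1, a kinase related to glycogen synthase kinase 3, averaged 16.4 ± 2.22 CPM in S10D-labelled E2, 16.6 ± 1.18 CPM in S10D-labelled EtOH, 20.6 ± 2.2 CPM in reference E2 and 36.9 ± 9.11 CPM in reference EtOH.

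Genes called in opposite directions in the strains were led by STR3, SRX1 at -1.46, HSP26 at -1.42, AAD4 at -1.38, SUL2 at -1.35, GRE2 at -1.26, CYB2 at -1.15 and YMR090W at -0.99. On chromosome IV, YAP6 stood at -0.84 beside PRM7, BSC1, AAD4 and HXT6.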

How the results depend on the processing

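The count of 1224 genes was 1197 with DESeq2, 1221 with DESeq2 size factors, 1258 with upper-quartile scaling, 1217 and 1253 with TMM computed without chromosome IV or ribosomal protein genes, 1181 with no filter, 1241 at a mean of at least 10 CPM and 1236 without the robust fit. An absolute log2 of at least 1 left 79. The split above and below 0 was 588 and 636, 679 and 579 with upper-quartile scaling, and 535 and 682 with TMM without chromosome IV. Leaving out single libraries gave 906 to 1994 genes, the highest without reference EtOH replicate 3, 102 to 991 for the S10D-labelled response (1370 in a fit of its own 6 libraries), 2133 to 3133 for the reference response (1843 in a fit of its own 6 libraries) and 3127 to 3935 for the strain difference in EtOH. The chromosome IV value ranged over -0.0749 to -0.0596 and lists with a median of at least 0.2 in size over 16 to 20. For genes called higher or lower in the reference strain, the S10D-labelled medians ranged over 0.0778 to 0.0849 and -0.0596 to -0.0516, and were 0.0563 and -0.0777 with upper-quartile scaling. The cell wall integrity median of -0.05 ranged over -0.1261 to 0.0457, the last without reference EtOH replicate 3; the cause was not tested.

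Of 148 named and called genes, 131 were called under every alternative and 17 were lost under at least 1; among the 28 leading genes these were SCR1 (12 of 22 alternatives), RPL11A (8), RPS28B (6), HXT6 (5) and MRK1 (4). With a replicate block the count was 1257 and with a block within each strain 1212. Replicate numbers were not taken as pairs: correlations of deviations of same-numbered libraries within a strain were 0.068, 0.126 and -0.002 in the S10D-labelled and 0.087, 0.071 and 0.002 in the reference strain. At this depth the levels of genes under about 10 CPM were the least certain.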

Other observations

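Carbon and lipid genes gave mixed directions. Glycolysis and fermentation had 1 called above and 5 below 0 of 25. GLK1, a glucokinase, averaged 2293 ± 16.6 CPM in S10D-labelled E2, 2018 ± 21.5 CPM in S10D-labelled EtOH, 2166 ± 99.6 CPM in reference E2 and 1099 ± 112 CPM in reference EtOH (SD, n = 3 each), with a difference of responses of -0.79 ± 0.08 (SE, adjusted p = 1.88e-05), whereas HXK2, the hexokinase of glucose-grown cells, averaged 886 ± 17.4 CPM in S10D-labelled E2, 1025 ± 20.2 CPM in S10D-labelled EtOH, 698 ± 12.6 CPM in reference E2 and 1091 ± 25.5 CPM in reference EtOH, with 0.43 ± 0.05 (SE, adjusted p = 6.63e-05). Citric acid cycle genes had 3 above and 3 below of 23, and respiratory chain genes 4 and 1 of 35. Leaving out reference EtOH replicate 3, the counts were 1 above and 8 below for glycolysis, 3 and 6 for the citric acid cycle, and 10 and 2 for the respiratory chain. In the same order the called shares were 24%, 26.1% and 14.3%, beside 20.4% of all genes. Without that library they were 36%, 39.1% and 34.3%, beside 33.1%, so these lists lay near the share of all genes. CYC1, the main cytochrome c gene, had 0.42 ± 0.06 (SE, adjusted p = 0.000197), opposite in sign to its isoform CYC7 at -1.65 ± 0.15 (SE, adjusted p = 9e-06).

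INO1, which makes inositol phosphate, averaged 35.4 ± 1.42 CPM in S10D-labelled E2, 21.2 ± 0.966 CPM in S10D-labelled EtOH, 44.2 ± 1.17 CPM in reference E2 and 15.6 ± 0.996 CPM in reference EtOH (SD, n = 3 each). It rose with E2 in both strains (adjusted p = 3.5e-05 in the S10D-labelled and 2.17e-09 in the reference strain), and its difference was -0.76 ± 0.10 (SE, adjusted p = 0.000113). Sterol synthesis genes had 4 above and 5 below 0 of 28 (32.1% called), or 6 and 7 (46.4%) without reference EtOH replicate 3. Among them were ERG2 at 0.44 and ERG9, squalene synthase, at -0.38. Proteasome genes had 8 of 35 called below 0 and 0 above, or 12 and 0 without that library, with a list median of -0.03. Their called share, 22.9%, was near the 20.4% of all genes, and without that library it was 34.3% beside 33.1%. Among those below 0 were the regulator RPN4 at -0.41 ± 0.06 (SE, adjusted p = 0.000299) and the polyubiquitin gene UBI4 at -0.61 ± 0.06 (SE, adjusted p = 1.97e-05).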
